A study of Mus musculus with 23 samples.

Results

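Nuclear factor, erythroid 2-like 2 (Nfe2l2, the protein NRF2), its repressors Keap1 and Bach1, and 7 genes of antioxidant enzymes (Gclc, Gclm, Gsr, Cat, Nqo1, Hmox1 and Txnrd1) were followed in the muscle of mice flown in space. They were chosen by name, and every probe set whose platform annotation gives exactly 1 of these 10 genes was kept, which gave 17 of the 22626 probe sets on the array. Keap1, Bach1, Gclc, Gsr and Cat each had 2 probe sets, Txnrd1 had 3, and the other genes had 1. Total RNA of male C57/BL6 mice (named C57BL/N6 in the design text) was hybridized to 23 Affymetrix mouse arrays, 1 per tissue sample. BF mice spent 30 days in microgravity on the Bion M1 biosatellite, BG mice had the same habitat on the ground, and FC mice lived in a standard animal facility. Longissimus dorsi (LD), a back muscle that holds the spine upright, gave 5 arrays in each of the BF, BG and FC groups. Tongue (TN), a muscle that does not carry body weight, gave 3 arrays in BF, 3 in BG and 2 in FC. The BF tissue was taken some hours after landing, so landing and the return to gravity are part of the BF group and cannot be told apart from the flight itself.

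NRF2 is a transcription factor that turns on genes against oxidants and reactive chemicals. In unstressed cells KEAP1 binds NRF2 and hands it to a ubiquitin ligase for breakdown, and oxidants that modify KEAP1 let NRF2 build up in the nucleus. There it pairs with small MAF proteins on antioxidant response elements, where BACH1, which is released by haem, competes with it as a repressor. Its classic targets make and recycle glutathione and thioredoxin, reduce quinones and break down haem.

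The antioxidant response element was looked for as TGACNNNGC, on both strands, in the 250 bases before the RefSeq gene starts (build GRCm38.p6). Of the 10 genes, 7 had such a promoter window, and 3 genes (Nfe2l2, Gclm and Txnrd1) had a match. Counted by window, as some genes have several starts, 3 of 9 windows had a match. Of all 32851 windows of 250 bases in the same table, 10.2% had a match. The promoter of Nfe2l2 is shown because its match stands in the gene of NRF2 itself, that of Gclm because this gene had the widest gap between BF and BG among the enzymes in LD, and that of Bach1 because it had the widest gap of all but no match. The capitals mark the match, which in Gclm is read on the opposite strand. The Gclm stretch stops where the annotated gene begins, after 180 bases.
Nfe2l2, chr2:75704664-75704913, minus strand: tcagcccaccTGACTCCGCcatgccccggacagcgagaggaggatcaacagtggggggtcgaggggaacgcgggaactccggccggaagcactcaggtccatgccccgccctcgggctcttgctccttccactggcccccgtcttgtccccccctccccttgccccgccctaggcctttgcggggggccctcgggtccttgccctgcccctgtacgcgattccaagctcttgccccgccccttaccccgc
Gclm, chr3:122245307-122245486, plus strand: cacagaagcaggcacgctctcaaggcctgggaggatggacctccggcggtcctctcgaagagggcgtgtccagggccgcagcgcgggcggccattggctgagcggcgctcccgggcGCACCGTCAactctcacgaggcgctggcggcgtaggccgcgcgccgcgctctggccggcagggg
Bach1, chr16:87698704-87698953, plus strand: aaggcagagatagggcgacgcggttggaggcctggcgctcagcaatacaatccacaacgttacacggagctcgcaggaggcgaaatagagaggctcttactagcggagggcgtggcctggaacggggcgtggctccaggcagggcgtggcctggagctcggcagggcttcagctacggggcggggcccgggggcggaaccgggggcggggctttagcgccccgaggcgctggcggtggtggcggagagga
The match began 240 bases before the start of Nfe2l2. In Gclm it began 134 bases before the start used in the promoter table, which lies inside the annotated gene, and 64 bases before the annotated gene itself. In Txnrd1 it began 92 bases before the second of the 3 Txnrd1 starts. The windows of Keap1, Bach1, Cat and Nqo1 held no match. Sequence beyond the windows was not searched, so a gene without a match may have one elsewhere.

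All values below are log2 values after Robust Multichip Average (RMA) normalization, and differences are log2 differences between group means, so that 1 is a 2-fold change. They were tested with limma over all 22626 probe sets, and a probe set passed when its Benjamini-Hochberg adjusted p was under 0.05. The value of a probe set cannot be set against that of another, because probes differ in brightness. Array medians lay between 6.42 and 6.61. The BG array 5 of LD stood apart from its group, with a spread of 0.356 around the group mean (0.103 to 0.254 in the other 22 arrays) and with the highest mean level of 16 macrophage markers of all LD arrays, at 9.53 (6.67 to 8.16 in the other 14). The tissue labels matched the markers: the summed level of 10 skeletal muscle markers was 17.3 to 17.5 in LD and 16.6 to 17.1 in TN (Actn3, of fast fibres, averaged 13.67 to 13.87 in the LD groups and 6.85 to 9.83 in those of TN), and 7 markers of oral epithelium had a summed level of 15.6 to 15.9 in TN and of 8.07 to 8.50 in LD, so TN held surface epithelium as well as muscle. Nothing in the labels states whether LD and TN came from the same mice.

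**Figure D1:**
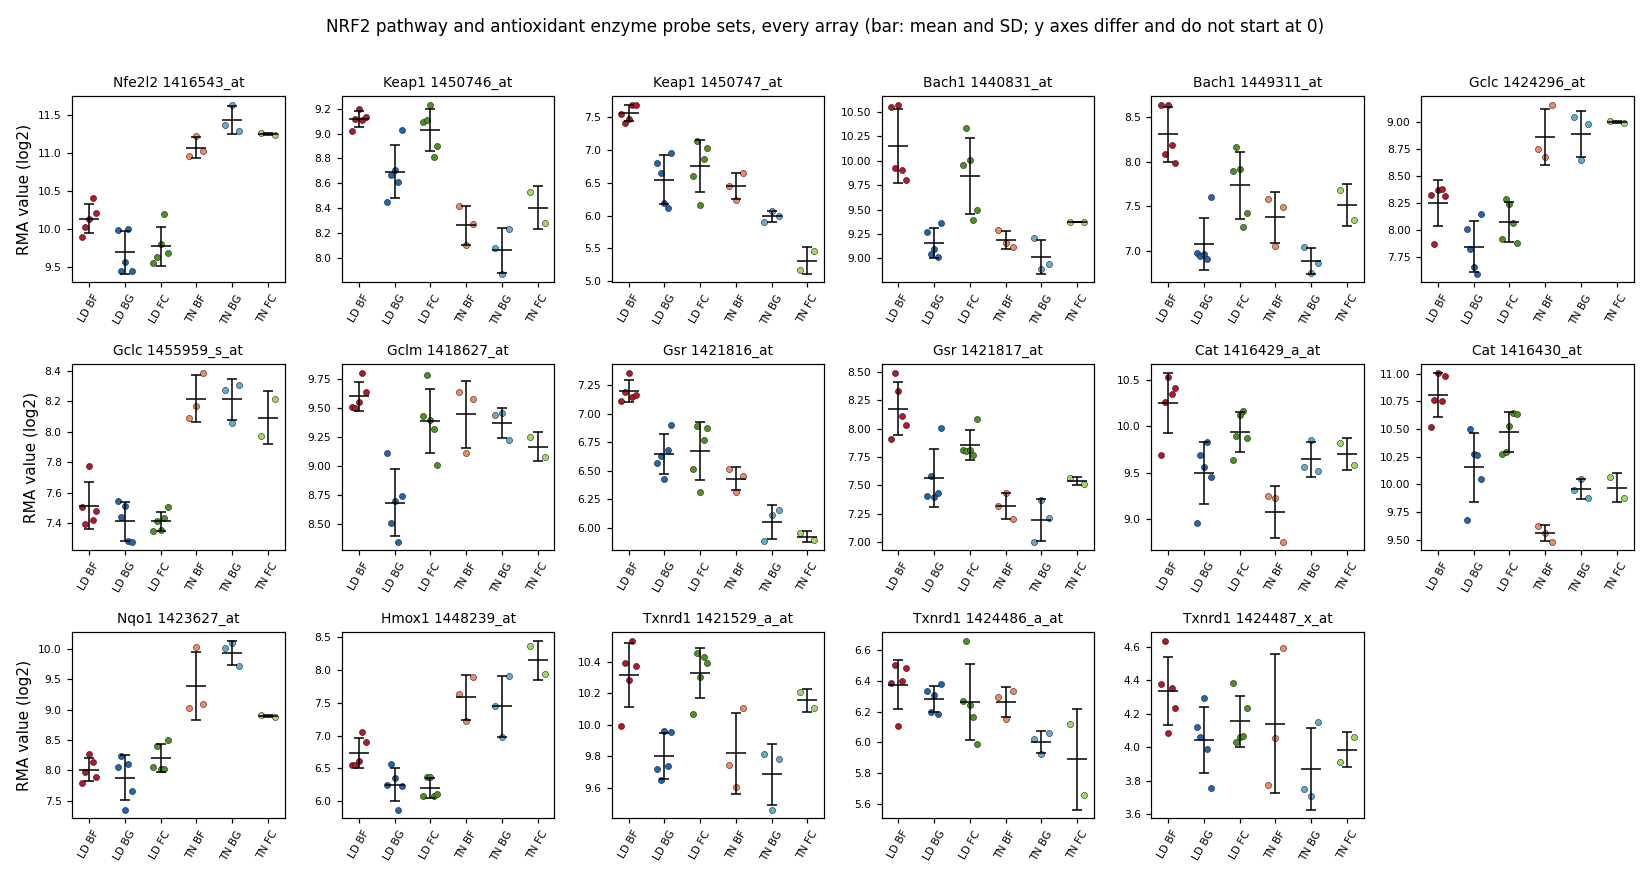
RMA values (log2, y axis) of all 17 probe sets in each of the 23 arrays, by group (x axis); points are arrays and bars are the group mean and SD. In LD the BF points of both Bach1 probe sets, Gclm and Keap1 1450747_at lie above all BG points, while Nfe2l2, Gclc, Nqo1 and Hmox1 are higher in TN than in LD.

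In LD, genes on both sides of the pathway were higher in BF than in BG. By the probe set of each gene with the widest difference, the repressors Bach1 and Keap1 and the glutathione enzyme Gclm came first. Cat, Gsr, Txnrd1, Nfe2l2 and Gclc followed. Keap1 had this rank only by 1450747_at (1.01). By 1450746_at it was at 0.42, below those differences of Cat, Gsr, Txnrd1 and Nfe2l2. Of the 17 probe sets, 12 (of 8 genes) were higher and 0 lower, where 6.41% of all probe sets on the array were higher and 3.83% lower. The median difference was 0.513 over the 17 probe sets and -0.0276 over all, and each of the 17 had a positive difference (0.09 to 1.23). Those past the test that also changed more than 2-fold were 2 of 17, against 0.424% of all probe sets. In these bulk samples more cells of a type and more RNA per cell cannot be told apart. Without the BG array 5 of LD 11 probe sets were higher. The 16 macrophage markers had a median difference of -0.662 between BF and BG, none of them passed, and their summed level was 11.25 to 12.88 in BF and 12.09 to 14.21 in BG. Of 7 endothelial markers 2 were higher in BF (Tie1 and Cdh5, at group means of 6.80 and 8.43 against 6.20 and 7.97 in BG) and 0 lower. The median difference of the 7 was 0.0202. Tek, Esam and Egfl7 averaged lower in BF (7.63, 8.29 and 8.59) than in BG (7.68, 8.32 and 8.68). The summed level of the 7 was 10.44 to 10.91 in BF and 10.32 to 10.80 in BG. The part of these markers in the results was not tested.

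Bach1 (chr16:87698954-87733346) codes for the repressor that competes with NRF2 for its DNA sites. By probe set 1440831_at it had values of 10.55, 9.92, 10.58, 9.90 and 9.81 in the BF arrays of LD, of 9.27, 9.05, 9.09, 9.01 and 9.36 in BG, and of 9.96, 10.34, 10.01, 9.40 and 9.50 in FC. Every BF and every FC array was above every BG array, while BF and FC overlapped. The difference was 0.99 ± 0.17 (SE, n = 5 and 5) for BF vs. BG (limma adjusted p = 0.00072) and 0.68 ± 0.17 for FC vs. BG (0.0136), and 0.31 ± 0.17 for BF vs. FC did not pass (0.374). Probe set 1449311_at read 8.63, 8.09, 8.64, 8.19 and 7.98 in BF, and 6.98, 6.94, 6.96, 6.91 and 7.60 in BG. The BG array that reads 7.60 is array 5, and it too was below all BF arrays. The difference of 1.23 ± 0.18 (adjusted p = 0.000191) was the widest of the 17, and it was 1.36 without that array. In FC the probe set ranged from 7.26 to 8.16 around a median of 7.90, overlapping both other groups. It passed in FC vs. BG (0.66 ± 0.18, adjusted p = 0.0242), but not with any 1 of the BG arrays 1, 2 and 4 or the FC arrays 2 and 3 left out (0.0541 to 0.0764), and BF vs. FC was 0.57 ± 0.18 (0.0743).

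Keap1 (chr9:21229730-21239332), the sensor that holds NRF2 back, was read differently by its probe sets. Probe set 1450747_at had values of 7.54, 7.41, 7.48, 7.69 and 7.68 in BF, of 6.80, 6.66, 6.19, 6.12 and 6.96 in BG, and of 6.60, 7.14, 6.16, 6.86 and 7.03 in FC. All BF arrays lay above all arrays of both ground groups, which overlapped each other widely. BF vs. BG was 1.01 ± 0.17 (limma adjusted p = 0.00066), BF vs. FC was 0.80 ± 0.17 (0.00841), and FC vs. BG was 0.21 ± 0.17 (0.473). Probe set 1450746_at had values of 9.02, 9.12, 9.20, 9.11 and 9.13 in BF, of 8.45, 8.67, 8.71, 8.61 and 9.03 in BG, and of 9.09, 9.11, 9.23, 8.81 and 8.90 in FC. Here FC stood with BF, and the BG array 5 alone reached the range of the BF arrays. BF vs. BG was 0.42 ± 0.11 (0.0143; 0.0523 without the BG array 1), BF vs. FC was 0.09 ± 0.11 (0.794), and FC vs. BG was 0.34 ± 0.11 (0.0492). The last call was lost with any 1 of 17 arrays left out (it held without the LD arrays BG 5, FC 4 or FC 5 or the TN arrays BF 2, BG 2 or BG 3), and also in 5 other settings, among them median centring (0.0658) and LD fitted alone (0.063). The study named Keap1 and Bach1 from these arrays, as it did Gsk3b, Prkcd and Chac1 below, so their rise in BF vs. BG is not independent evidence.

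Nfe2l2 (chr2:75675513-75704663), the gene of NRF2, had values of 9.89, 10.03, 10.13, 10.41 and 10.21 in the BF arrays of LD, of 9.99, 9.45, 9.57, 9.996 and 9.45 in BG, and of 9.55, 9.63, 9.81, 10.20 and 9.68 in FC. The 3 groups overlapped, and most BF arrays were above most ground arrays. BF vs. BG was 0.45 ± 0.13 (limma adjusted p = 0.0377), BF vs. FC was 0.36 ± 0.13 (0.152), and FC vs. BG was 0.08 ± 0.13 (0.763). The first did not pass with any 1 of the BF arrays 3, 4 and 5 or the BG arrays 2, 3 and 5 left out (0.0605 to 0.109), nor without variance moderation (0.0559), with LD fitted alone (0.069) or with median centring (0.0689).

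Gclm (chr3:122245487-122267215) codes for the modifier subunit of glutamate-cysteine ligase, which makes the first step of glutathione synthesis more efficient. Its values were 9.50, 9.50, 9.54, 9.80 and 9.64 in BF, 9.11, 8.50, 8.70, 8.35 and 8.74 in BG, and 9.43, 9.79, 9.39, 9.32 and 9.01 in FC. All BF arrays were above all BG arrays, and only the lowest FC array fell within the BG range. For BF vs. BG the difference was 0.92 ± 0.14 (limma adjusted p = 0.000353), FC vs. BG was 0.71 ± 0.14 (0.00469), and BF vs. FC was 0.21 ± 0.14 (0.514), with a 95% interval of -0.08 to 0.50.

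Gclc (chr9:77754535-77794489), the catalytic subunit of the same ligase, had values of 8.32, 7.87, 8.37, 8.38 and 8.31 in BF and of 8.001, 7.82, 7.65, 7.59 and 8.14 in BG by probe set 1424296_at. The BF array 2 was the only BF array within the BG range. The difference was 0.41 ± 0.13 (limma adjusted p = 0.0486), the last to pass, and it passed without the LD arrays BF 2, BG 5 or FC 2 or the TN arrays BF 2, BF 3 or BG 2, but not without any 1 of the other 17 (up to 0.127). It also did not pass with the replicate number as a block (0.0583), without variance moderation (0.068), with LD fitted alone (0.0621), with quantile normalization within each muscle (0.081) or with median centring (0.0582). FC lay between, from 7.87 to 8.29, and passed against neither group. Probe set 1455959_s_at did not pass (0.10 ± 0.09 for BF vs. BG, 0.526), with values of 7.40 to 7.78 in BF and of 7.28 to 7.55 in BG.

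Gsr (chr8:33653238-33698162) codes for glutathione reductase, which returns oxidized glutathione to its reduced form with NADPH. By probe set 1421816_at it read 7.12, 7.19, 7.36, 7.15 and 7.17 in BF, 6.57, 6.63, 6.42, 6.68 and 6.90 in BG, and 6.51, 6.89, 6.31, 6.77 and 6.88 in FC. All BF arrays were above all arrays of both ground groups, which covered the same range. BF vs. BG was 0.55 ± 0.11 (limma adjusted p = 0.00271), BF vs. FC was 0.52 ± 0.11 (0.00838), and FC vs. BG was 0.03 ± 0.11 (0.895). Probe set 1421817_at was 7.91, 8.50, 8.33, 8.12 and 8.04 in BF and 7.40, 7.59, 7.40, 7.44 and 8.01 in BG. The BG array 5 again stood above the other BG arrays and reached into the BF range. BF vs. BG was 0.61 ± 0.12 (0.00301; 0.72 without that array), while BF vs. FC at 0.32 ± 0.12 (0.168) and FC vs. BG at 0.29 ± 0.12 (0.138) did not pass.

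Cat (chr2:103453904-103485153), catalase, splits hydrogen peroxide in peroxisomes. Its probe set 1416430_at read 10.52, 10.76, 11.01, 10.75 and 10.97 in BF, 9.68, 10.50, 10.27, 10.26 and 10.05 in BG, and 10.27, 10.29, 10.52, 10.64 and 10.63 in FC. All BF arrays were above all BG arrays, by a narrow gap at the edge, and FC overlapped both. The difference was 0.65 ± 0.13 for BF vs. BG (limma adjusted p = 0.00253), 0.33 ± 0.13 for BF vs. FC (0.17) and 0.32 ± 0.13 for FC vs. BG (0.116). Probe set 1416429_a_at gave the same order, with 0.75 ± 0.16 (0.0056), 0.31 ± 0.16 (0.369) and 0.44 ± 0.16 (0.0936).

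Txnrd1 (chr10:82833951-82897724) codes for cytosolic thioredoxin reductase. By its brightest probe set, 1421529_a_at, the values were 9.99, 10.39, 10.29, 10.53 and 10.37 in BF, 9.72, 9.65, 9.96, 9.74 and 9.95 in BG, and 10.07, 10.45, 10.30, 10.43 and 10.39 in FC. Both BF and FC lay above BG in every array and covered the same range. For BF vs. BG the difference was 0.51 ± 0.11 (limma adjusted p = 0.00677), FC vs. BG was 0.53 ± 0.11 (0.00813), and BF vs. FC was -0.01 ± 0.11 (0.981), with a 95% interval of -0.25 to 0.23. The other probe sets of Txnrd1 did not pass in LD: BF vs. BG was 0.09 ± 0.11 (0.65) by 1424486_a_at and 0.29 ± 0.14 (0.189) by 1424487_x_at.

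Hmox1 (chr8:75093618-75100593), the inducible haem oxygenase, and Nqo1 (chr8:107388225-107403205), a quinone reductase, are classic NRF2 targets, and neither passed in LD. Hmox1 read 6.55, 6.55, 6.62, 7.06 and 6.90 in BF, 6.25, 6.56, 6.36, 5.87 and 6.23 in BG, and 6.08, 6.36, 6.37, 6.08 and 6.12 in FC. Every BF array was above every FC array, yet the test gave 0.53 ± 0.16 (limma adjusted p = 0.0731) for BF vs. FC and 0.48 ± 0.16 (0.0619) for BF vs. BG. Nqo1 had values of 7.79, 7.98, 8.27, 8.13 and 7.89 in BF and of 8.05, 8.24, 7.35, 8.11 and 7.65 in BG. The groups overlapped throughout, with a difference of 0.13 ± 0.18 (0.704) and a 95% interval of -0.24 to 0.50.

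**Figure D2:**
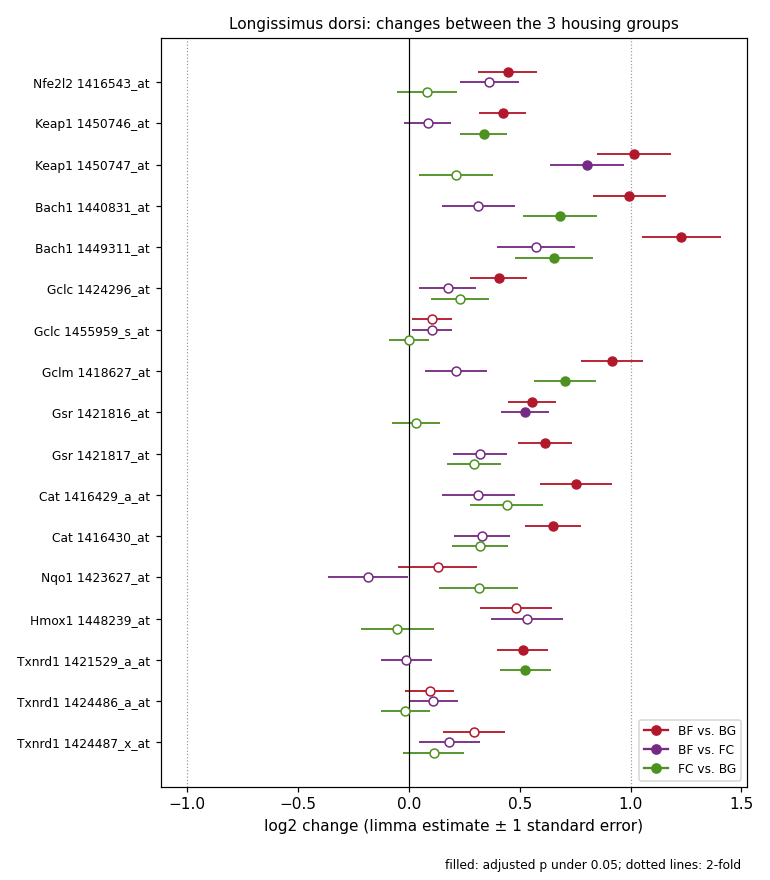
Log2 differences in LD (x axis, limma estimate ± 1 SE) for BF vs. BG, BF vs. FC and FC vs. BG in each of the 17 probe sets (y axis); filled points passed at an adjusted p under 0.05. The BF vs. BG points are all to the right of 0, and the FC vs. BG points of Bach1, Gclm and Txnrd1 1421529_a_at lie well to the right of it as well.

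The 3 comparisons in LD share arrays pair by pair, so they are not independent of each other. In FC vs. BG, 5 probe sets of 4 genes (both of Bach1, Gclm, Txnrd1 1421529_a_at and Keap1 1450746_at) were higher and 0 lower, where 6.79% of all probe sets were higher and 2.16% lower. The median difference of the 17 was 0.292, against -0.0102 over all probe sets. Of the 16 macrophage markers 2 were lower in FC (median -0.672), with a summed level of 11.5 to 12.6 in FC against 12.09 to 14.21 in BG, and their part in this result was not tested. The count of 5 became 3 with any 1 of the LD arrays BG 1, BG 2, BG 4, FC 2 and FC 3 left out. In BF vs. FC, 2 probe sets (Keap1 1450747_at and Gsr 1421816_at) were higher and 0 lower, where 2.06% of all were higher and 1.6% lower, and the median was 0.312 against -0.0259. FC vs. BG was 0.68 and 0.66 for Bach1, 0.71 for Gclm and 0.53 for Txnrd1 1421529_a_at, and it was 0.03 for Gsr 1421816_at, 0.21 for Keap1 1450747_at and 0.08 for Nfe2l2, which did not pass.

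Around these 10 genes, 79 of 91 further genes in 6 lists were measured, each by its brightest probe set. In BF vs. BG of LD 9 were higher, 6 lower and 64 did not pass, and their median difference was -0.0809, where 6.41% of all probe sets were higher and 3.83% lower. The same 79 genes gave 9 higher and 4 lower in FC vs. BG, where 6.79% of all probe sets were higher and 2.16% lower. In BF vs. FC they gave 3 higher and 1 lower, where 2.06% of all probe sets were higher and 1.6% lower. In BF vs. BG the list of NRF2 partners and regulators had 7 higher and 0 lower of 16 measured, against the 6.41% and 3.83% of all probe sets. Among them were Gsk3b (1.09 ± 0.16, limma adjusted p = 0.000275), a kinase that marks NRF2 for breakdown, Prkcd (1.11 ± 0.23, 0.00369), a kinase that can phosphorylate NRF2, and Crebbp (0.52 ± 0.08, 0.000507), a coactivator. Mafg (0.66), a small MAF partner, Bach2 (0.59), a relative of Bach1, Sqstm1 (0.53), the autophagy receptor p62 that binds KEAP1, and Fbxw11 (0.33), a ubiquitin ligase subunit, were the other members that passed. In FC vs. BG, 4 of the 16 were higher and 0 lower, and they were Crebbp (0.49, limma adjusted p = 0.00211), Mafg (0.53, 0.0265), Dpp3 (0.47, 0.0304) and Btrc (0.37, 0.0375). In BF vs. FC only Gsk3b passed (0.70, 0.0159), and Crebbp was at 0.03 (0.926).

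In BF vs. BG of LD, the comparison used here unless another is named, 6.41% of all probe sets were higher and 3.83% lower. Of 29 measured genes of glutathione synthesis and use, 1 was higher and 4 were lower. The higher gene was Chac1 (1.41 ± 0.29, limma adjusted p = 0.00356), which breaks glutathione down rather than making it, and which was also higher in FC vs. BG (0.94, 0.0432). The lower ones were Gpx8 (-0.94 ± 0.21, 0.0067), Hagh (-0.41 ± 0.10, 0.0166), Ggct (-0.70 ± 0.19, 0.0244) and Gstm5 (-0.40 ± 0.12, 0.032). Gpx8 was lower in FC vs. BG too (-0.78, 0.0247). Of 11 thioredoxin and peroxiredoxin genes, Txnrd3 was higher (0.46 ± 0.12, 0.0177) and Prdx4, a peroxiredoxin of the endoplasmic reticulum, was lower (-0.54 ± 0.15, 0.0262). Txnrd3 had its highest mean in FC, with 0.85 ± 0.12 for FC vs. BG (limma adjusted p = 0.000924). For BF vs. FC it was at -0.39 ± 0.12 and did not pass (0.0764). None of 4 superoxide dismutase genes (with the copper chaperone Ccs) and none of 7 genes of NADPH supply passed. Of 12 genes of haem, iron storage and quinone detoxification, only Ugdh passed, lower by -0.73 ± 0.23 (0.0446).

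In TN, 0 of the 17 probe sets passed in BF vs. BG in either direction by limma, where 0.354% of all probe sets were higher and 0.473% lower. With 3 arrays a group, and 2 in FC, the intervals are wide. Of the 17 differences, 12 were positive and 5 negative, with a median of 0.133 (0.0185 over all probe sets). Bach1 1449311_at (0.49), Keap1 1450747_at (0.46) and Gsr 1421816_at (0.38) had every BF array above every BG array, as in LD. Nqo1 was at -0.55 ± 0.23 (limma adjusted p = 0.249). Just beyond it, catalase had the widest difference in this comparison, by 1416429_a_at only. Its probe set 1416429_a_at read 9.24, 9.23 and 8.75 in BF, 9.56, 9.86 and 9.51 in BG, and 9.82 and 9.58 in FC. Probe set 1416430_at read 9.62, 9.56 and 9.48 in BF, 9.95, 10.05 and 9.87 in BG, and 10.07 and 9.87 in FC. In both, every BF array was below every array of the other groups, opposite to LD. The differences of -0.57 ± 0.21 (limma adjusted p = 0.189) and -0.40 ± 0.16 (0.232) for BF vs. BG did not pass.

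The difference in BF vs. BG between the muscles was then tested itself, as LD minus TN. It passed in 2 of 17 probe sets, both of Cat, where 0.172% of all probe sets passed. It was 1.32 ± 0.27 (limma adjusted p = 0.0451) by 1416429_a_at and 1.05 ± 0.21 (0.0382) by 1416430_at. The first was lost without any 1 of 17 arrays (0.051 to 0.187) and the second without any 1 of 11 arrays (0.0525 to 0.15). Both were also lost without variance moderation (0.0823 and 0.0661) and with median centring (0.0672 and 0.0647), and the second with quantile normalization within each muscle (0.0555), while both stayed positive in every setting run. For Nfe2l2, which was -0.36 ± 0.17 (0.326) in TN, the difference between muscles was 0.80 ± 0.22 (0.141), for Gclm it was 0.84 ± 0.23 (0.14), and for Bach1 1440831_at 0.82 ± 0.27 (0.226). None of these passed. In BF vs. FC, 0 of 17 passed for the difference between muscles by limma, where 0.0663% of all did. The widest was Hmox1, at 1.10 ± 0.29 (limma adjusted p = 0.261).

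**Figure D3:**
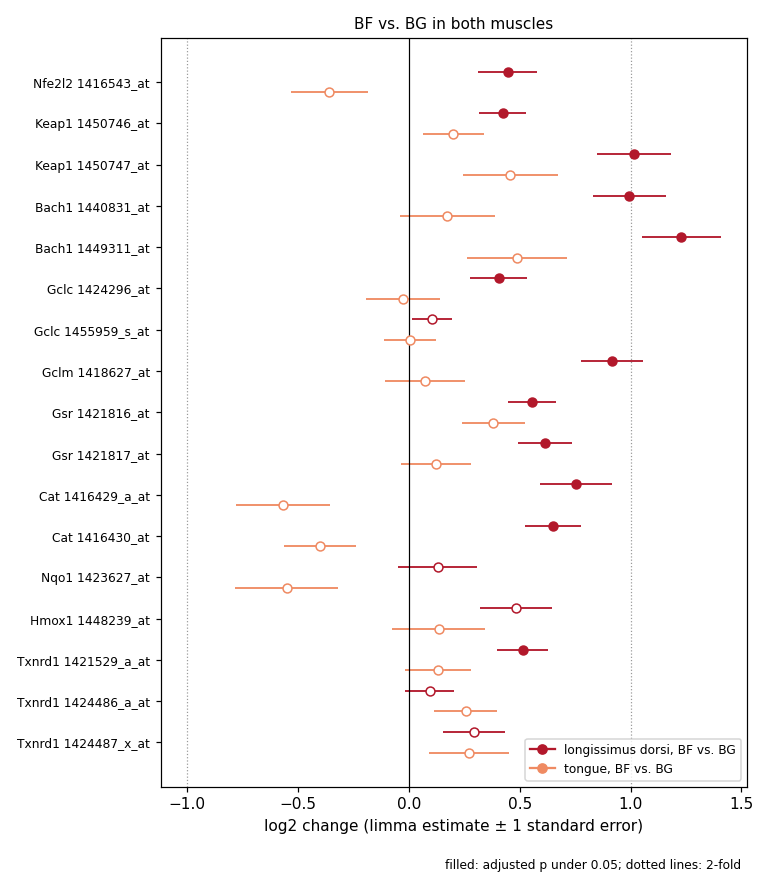
Log2 differences for BF vs. BG (x axis, limma estimate ± 1 SE) in LD and TN for each of the 17 probe sets (y axis); filled points passed at an adjusted p under 0.05. Catalase lies to the right of 0 in LD (0.75 and 0.65) and to the left of it in TN (-0.57 and -0.40).

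Keap1 and Nqo1 were the genes that passed in the other TN comparisons. In BF vs. FC of TN, 1 probe set was higher and 0 lower, where 1.16% of all were higher and 1.08% lower. Keap1 1450747_at read 6.46, 6.24 and 6.64 in BF, 5.90, 6.07 and 5.996 in BG, and 5.17 and 5.46 in FC. The 3 groups did not overlap, with BF on top and FC lowest. BF vs. FC was 1.13 ± 0.24 (limma adjusted p = 0.0134), but 0.0558 without the BF array 3, 0.28 without the FC array 1 and 0.0615 without the FC array 2. Keap1 1450746_at was at -0.14 ± 0.15 (0.722) in the same comparison, so its probe sets again differed.

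In FC vs. BG of TN, 0 of 17 probe sets were higher and 1 was lower, where 5.13% of all were higher and 4.33% lower. With array weights the balance turned, to 5 higher and 2 lower. Of 10 skeletal muscle markers 4 were higher and 0 lower in FC. Their summed level was 16.86 to 16.89 in FC, against 16.59 to 16.83 in BG. The mean level of the 10, at 12.84 to 12.85 in FC, lay within that of BG (12.55 to 13.3). Actn3, Pvalb and Mb, which did not pass, averaged lower in FC (6.85, 11.03 and 14.21) than in BG (9.02, 12.08 and 14.31). Of 7 endothelial markers 1 was higher in FC, and the part of these markers in this result was not tested. Nqo1 read 8.90 and 8.88 in FC, 10.01, 10.09 and 9.71 in BG, and 9.03, 10.03 and 9.09 in BF. FC was below all other TN arrays, and the BF arrays were split, 1 with BG and the other two near FC. FC vs. BG was -1.05 ± 0.26 (limma adjusted p = 0.0146), and it did not pass without the BG array 2 (0.0671), the FC array 1 (0.141) or the FC array 2 (0.0952). Hmox1 in TN, at 8.36 and 7.94 in FC and 7.45, 6.98 and 7.90 in BG, had a difference of 0.70 ± 0.24 that did not pass (0.0607).

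Between the muscles most of these genes differed in level. Such differences were common on the array: in BG 19.8% of all probe sets were higher and 34.3% lower in TN than in LD, in FC 19.1% and 27.7%, and in BF 18.3% and 27.5%. Of the 17 probe sets, 6 were higher and 4 lower in BG, 5 and 5 in FC, and 5 and 9 in BF. TN and LD differ in cell makeup (the epithelial and muscle markers above), and its part in these levels was not tested.

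Nfe2l2, Nqo1, Hmox1 and both probe sets of Gclc were higher in TN in all 3 housing groups. For Nfe2l2 the difference was 1.74 ± 0.16 in BG (limma adjusted p = 3.2e-09), 1.47 ± 0.18 in FC and 0.93 ± 0.16 in BF, and all 8 TN arrays (10.96 to 11.64) were above all 15 LD arrays (9.45 to 10.41). Nqo1 was higher by 2.05 ± 0.21 in BG (2.26e-08), 1.37 ± 0.21 in BF and 0.69 ± 0.24 in FC, where it was lost without the FC array 1 (0.105) or 2 (0.0939) of TN. Hmox1 was higher by 1.19 ± 0.19, 1.94 ± 0.22 and 0.84 ± 0.19 in BG, FC and BF, with all TN arrays at 6.98 to 8.36, a range that of the LD arrays only the BF array 4 (7.06) reached. Gclc was higher by 0.61 to 1.05 over both probe sets and all housing groups.

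Keap1 and Gsr were on the other side. Both Keap1 probe sets were lower in TN in all 3 housing groups, by -0.56 to -1.44, with 1450747_at in BG lost without the TN array BG 1 (adjusted p = 0.0689). Gsr 1421816_at was lower by -0.59 ± 0.13, -0.75 ± 0.14 and -0.77 ± 0.13 in BG, FC and BF. Gsr 1421817_at was lower by -0.86 ± 0.14 in BF and -0.37 ± 0.14 in BG (0.0308), the latter lost without LD BG 5 (0.0775), TN BG 1 (0.167) or TN BG 3 (0.0593), and at -0.32 ± 0.16 it did not pass in FC (0.109).

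Bach1, Cat and Gclm passed between the muscles in some housing groups and not in others. Bach1 was lower in TN than in LD in BF, by -0.96 ± 0.19 and -0.93 ± 0.20 (limma adjusted p = 0.00022 and 0.000594), and did not pass in BG (-0.14 and -0.19) or in FC (-0.46 and -0.22). Cat was lower in BF by -1.18 ± 0.19 and -1.25 ± 0.15, did not pass in BG (0.14 and -0.19), and in FC passed by 1416430_at (-0.50 ± 0.17, 0.0171; 0.171 without the TN array FC 2) but not by 1416429_a_at (-0.24 ± 0.22, 0.38). Gclm was higher in TN in BG (0.69 ± 0.16, 0.00124) and passed neither in FC (-0.22 ± 0.19) nor in BF (-0.16 ± 0.16). Of these changes in the gap, that between BF and BG is the difference between muscles tested above, which passed for Cat and not for Bach1 or Gclm. Txnrd1 1421529_a_at was lower in TN in BF (-0.50 ± 0.13, 0.00355), and 1424486_a_at in FC (-0.37 ± 0.15, 0.0404), the latter at -0.14 without the TN array FC 2 (0.591) and also lost without LD FC 1, 2 or 3 (0.0507 to 0.0925).

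**Figure D4:**
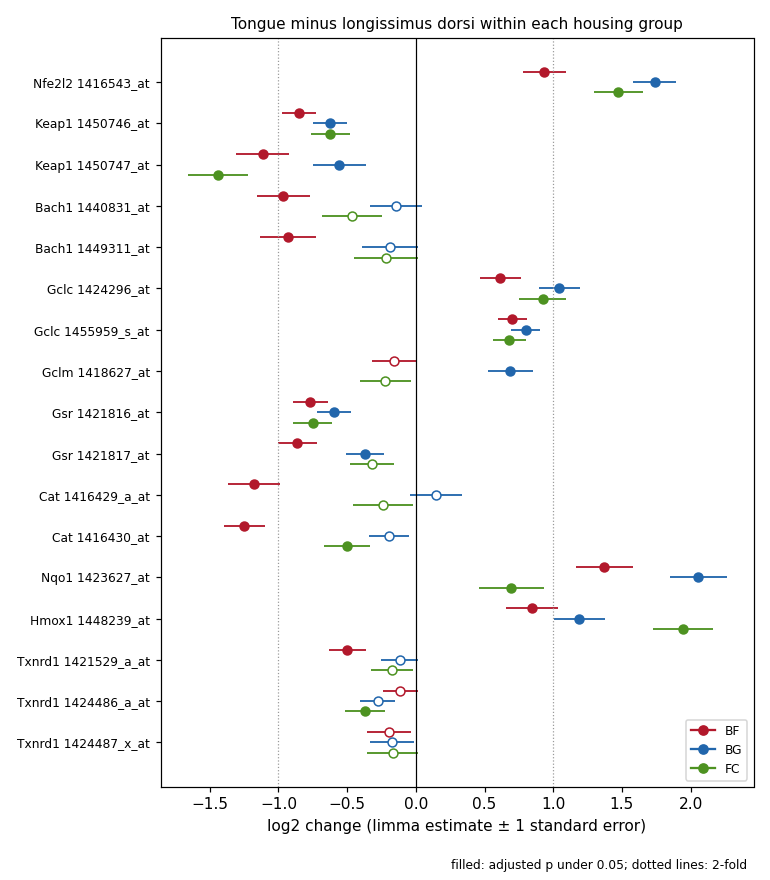
Log2 differences between TN and LD (x axis, limma estimate ± 1 SE, positive where TN is higher) in BF, BG and FC for each of the 17 probe sets (y axis); filled points passed at an adjusted p under 0.05. Nfe2l2, Gclc, Nqo1 and Hmox1 lie to the right of 0 in all 3 housing groups, Keap1 and Gsr to the left of it.

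The genes whose pattern was most like that of each regulator were taken as the 3 probe sets of other genes with the highest Pearson r over the 23 arrays, after the mean of each muscle was subtracted. For Bach1 1440831_at they were B4galt1 (0.937), Nedd4l (0.925) and Tmpo (0.919), and for Keap1 1450746_at they were Chd4 (0.922), Eif3a (0.918) and Ddx6 (0.916). For Nfe2l2 they were Psmc6 (0.783), a proteasome subunit, Zscan21 (0.779) and Dnajb6 (0.778), a chaperone, so no gene followed Nfe2l2 as closely as those did Bach1 or Keap1. All points share the 6 groups, and these are the top values of a search over all probe sets of 1 gene. Within LD, over its 15 arrays and as a description, r of Nfe2l2 was 0.157 with Keap1 1450746_at, 0.51 with Keap1 1450747_at, and 0.259 and 0.318 with the Bach1 probe sets. Keap1 1450746_at had an r of 0.79 and 0.862 with the Bach1 probe sets, and Keap1 1450747_at of 0.598 and 0.703.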

How the data were processed

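The table analysed holds, for 22626 probe sets and 23 arrays, the log2 values that the authors deposited after RMA normalization in Partek software, per the labels and the methods. RMA draws all arrays to a common distribution, and no probe-level files were used here. Gene names came from the platform annotation (20380 probe sets with 1 gene, 691 with several, 1555 with none), and coordinates and promoters from RefSeq GRCm38.p6, where all 10 genes matched. Groups came from the labels. A linear model of the 6 groups was fitted to all arrays with limma 3.58.1 in R 4.3.3 (17 residual degrees of freedom), with 11 comparisons, empirical Bayes moderation and Benjamini-Hochberg adjustment over all probe sets within a comparison. The methods used ANOVA on the same kind of values with a more than 2-fold limit, which was counted beside the calls. The code was tested on simulated data. No batch is given, and precision is limited by the number of arrays. The text names all 17 probe sets, up to 3 higher and 3 lower genes of a list with the smallest adjusted p (Gstm5, Mafg, Bach2, Sqstm1 and Fbxw11 were added after their values were seen), and the 3 probe sets most like each regulator. The members, lists and tests were chosen with earlier results of these data known. P-values measure the spread between these samples, for which the labels give no further origin than the group.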

Additional observations from a re-analysis of the deposited data

Results flagged for a closer look

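Among the 51 groups of 5 arrays (17 probe sets in LD), 4 had 1 array whose gap to its nearest neighbour, as a share of the group's whole range, was above 0.71, where chance gives about 1 in 20. For Bach1 1449311_at the BG array 5 was the highest, with a share of 0.905. For Gclc 1424296_at the BF array 2 was the lowest (0.868), for Gclc 1455959_s_at the BF array 3 was the highest (0.717), and for Gsr 1421817_at the FC array 5 was the highest (0.843).

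Catalase was the gene whose BF vs. BG difference itself differed between LD and TN, by 1.32 on the log2 scale for probe set 1416429_a_at and by 1.05 for 1416430_at (limma adjusted p = 0.0451 and 0.0382). Both calls depended on the setting, as given above. They were lost without variance moderation, with median centring and in part of the fits with an array left out. The cause was not tested.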

How the results depend on the processing

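Over 32 other settings, 57 called values of single probe sets gave 1656 values that kept their direction and call, 110 that kept their direction but lost the call, and 0 that reversed, and 43 of the 57 kept their call throughout. In LD the count for BF vs. BG, 12 of 17 probe sets, was 10 to 13 with an array left out and 8 of 10 with 1 probe set per gene. For the difference between muscles in BF vs. BG (2) the count was 0 without moderation or with median centring, 1 with quantile normalization within each muscle or 1 probe set per gene, 4 with array weights and 0 to 2 with an array left out, and for BF vs. FC (0) it was 1 with array weights. For BF vs. FC in LD (2) it was 4 with array weights and 0 with 1 probe set per gene. For FC vs. BG in LD (5) it was 3 to 6 with an array left out. In TN, BF vs. BG (0) gave 2 with array weights and 0 to 1 with an array left out, BF vs. FC (1) gave 3 with array weights, 0 with 1 probe set per gene and 0 to 1 with an array left out, and FC vs. BG (1, lower) gave 2 with each muscle fitted alone, 2 with dim probe sets removed, 7 with array weights (5 higher and 2 lower) and 0 to 2 with an array left out. For TN vs. LD with 1 probe set per gene, the counts were 6 in FC and 9 in BF, of 10 probe sets, against 10 and 14 of 17. The cause was not tested, beyond the fewer probe sets in the setting of 1 per gene. Same-numbered arrays of different housing groups correlated at a median of 0.109 in LD (-0.218 to 0.545, 8 of 15 pairs over 0.1) and 0.095 in TN (-0.0982 to 0.383, 3 of 7), against -0.0441 (16 of 60) and -0.0554 (1 of 14) for other pairs. An array correlated best with its own number in 13 of 30 sets of an array and another group in LD and 7 of 14 in TN. As not every same-numbered pair was over 0.1, the main test did not take the numbers as pairs. That rule cannot settle whether they are pairs, because true pairs can also correlate weakly. The 2 arrays of TN FC deviate from their mean as mirror images, so their correlations differ only in sign (0.0557 and -0.0557 with the BF array 1). Same-numbered arrays had the higher median in both muscles, and whether they share an origin was not tested. With the replicate number as a block, the counts in TN were 1 for BF vs. BG, 2 for BF vs. FC and 3 for FC vs. BG, against 0, 1 and 1, and in LD it was 12 for BF vs. BG, of which 11 were among the 12 without the block. With TN FC at 2 arrays, leaving out 1 assumes that the other varies like the other groups.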
